A study of Mus musculus with 18 samples.

Results

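Total RNA of B16 cells treated with PB-4 was compared with that of control B16 cells, with 3 libraries in each group. These 6 libraries were chosen by their labels, from 18 in the series. The other libraries were ATRA-treated cells and miRNA libraries and are not described here. All 46068 gene names of the count table were kept after 27 names that had turned into dates were dropped, and 19450 of them held at least 10 counts over the 6 libraries and were tested. B16 is an established mouse melanoma line, and PB-4 is sodium 4-phenylbutanoate. Both groups were the same line, and the treatment was the only stated difference between them. The labels name skin as the source although they give B16 as the cell line, and neither dose nor duration of PB-4 in the sequenced cells was given in the sources used here. Nothing says that the replicates came from separate cultures, so a p-value here reflects only how far these libraries spread, which may be technical.

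4-Phenylbutanoate is a short fatty acid that blocks zinc-dependent histone deacetylases, the enzymes that take acetyl groups off histones and many other proteins. Acetylated histones loosen the packing of DNA, and inhibitors of these enzymes are known to turn on genes that a cell line keeps silent and to slow passage through the cell cycle. PB-4 is also known as a chemical chaperone that eases the load of unfolded protein in the endoplasmic reticulum. Melanoma cells keep much of the program of the melanocyte, the pigment cell that makes melanin in organelles called melanosomes, and melanocytes descend from the neural crest, which also gives neurons and Schwann cells.

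CPM stands for counts scaled to the size of the library, here with TMM factors, and levels stand always in the order of replicates 1, 2 and 3. Changes are log2 fold changes of PB-4 over control ± the standard error, with p-values adjusted over all 19450 genes by edgeR's quasi-likelihood test. Rose and fell mean an adjusted p under 0.05. Depth was 17006638 to 32633226 counts in the control libraries and 13928215 to 35832073 in the PB-4 libraries, and replicate 3 was the shallowest of each group. A first principal component with 59.7% of the variance separated the groups, and replicate 3 of both groups stood apart from replicates 1 and 2 on the second (23.4%). A fit with replicate number as a block is therefore given where it changes a result. CPM compares one gene between libraries, not the levels of different genes.

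With PB-4 2246 genes rose (11.5% of those tested) and 893 fell (4.59%). With the replicate block 4494 rose (23.1%) and 4136 fell (21.3%), and these included 2238 of the 2246 and 892 of the 893. The counts of each gene list below are to be read against these shares. In the first fit the groups did not overlap for 2243 of the genes that rose and for all 893 that fell. A gene that passed the test was thus nearly always separated in this way, so here and below separation is no further support for a call. The share of separated genes among all genes tested is not given here. The called rises were larger and came from lower genes. This contrast is in part set by the filter and the test, since a gene low in the control libraries can hardly be called as a fall. The median log2 fold change was 3.16 for the genes that rose (2.99 with genes absent from the control libraries set at a lower bound) and -1.11 for those that fell, and the median level over the 6 libraries was 5.08 against 64.8 CPM. A change of at least 2-fold was seen for 2079 of the genes that rose and 581 of those that fell. Under all 15 alternative fits 1004 of the rises and 155 of the falls were called. Rises made up 71.6% of the calls, 52.1% with the block and 84.5% with library totals in place of TMM factors. The median log2 fold change over all genes was 0.03, and 0.20 with library totals. Leaving out control replicate 2 left 1134 rises and 207 falls, leaving out control replicate 1 left 1229 and 304, and leaving out PB-4 replicate 2 left 1306 and 182.

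**Figure D1:**
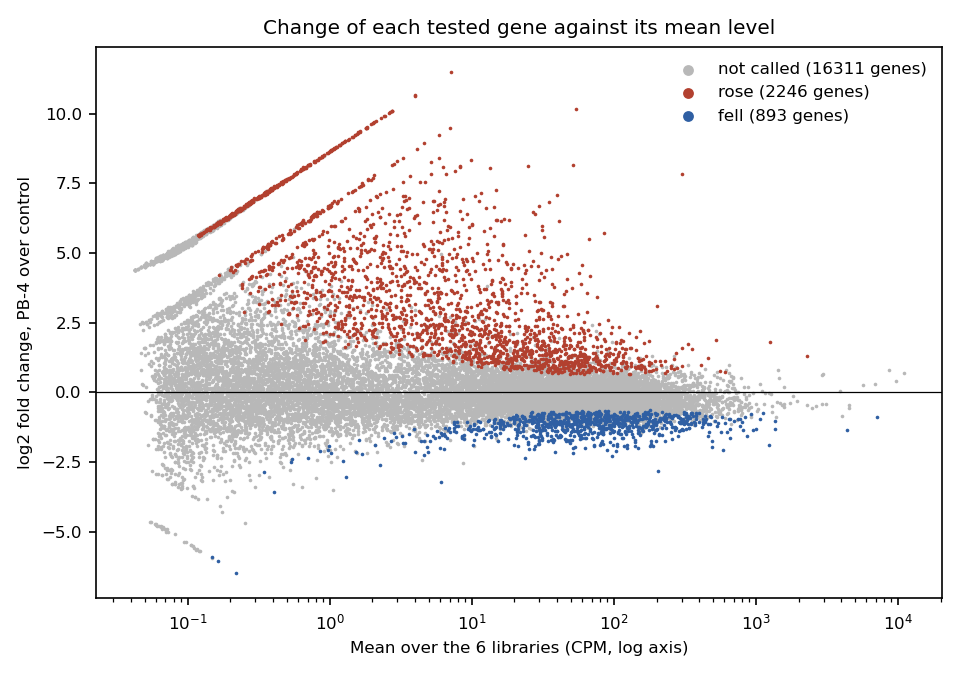
Each point is 1 tested gene, with its mean level over the 6 libraries (CPM, log axis) on the x axis and its log2 fold change of PB-4 over control on the y axis. Red marks the 2246 genes that rose, blue the 893 that fell and grey the others, the blue points lie to the right at higher levels, and the diagonal lines at the upper left are genes with 0 or a few counts in the control libraries.

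Rises and falls were counted by the level of the gene. Among genes with a mean of 1 to 10 CPM over the 6 libraries, a mean that holds the PB-4 levels too, 22.4% rose and 1.62% fell, while above 100 CPM 3.51% rose and 12% fell. With the block the shares were 34.1% and 10.7% at 1 to 10 CPM and 15.1% and 50.8% above 100 CPM. Binned by the mean of the control libraries alone, 26% of genes under 0.1 CPM rose and none fell (37.1% and none with the block). Genes of this bin passed the filter only with counts from PB-4 and were too low in the control libraries to be called as falls. The absence of falls among them was thus fixed in advance. Above 100 CPM of the control mean 1.46% rose and 14.7% fell. Of protein-coding genes 14.8% rose and 5.92% fell, against 5.2% and 0.621% of lncRNAs (134 and 16 of 2577). None of the 22 genes of the mitochondrial genome was called in either direction. Because a gene that was silent in the control libraries could pass the filter only if it had counts with PB-4, the test was also read over the 16315 genes with at least 10 counts in the control libraries, an alternative chosen after the data had been seen. Of these 1490 rose (9.13%) and 893 fell (5.47%).

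**Figure D2:**
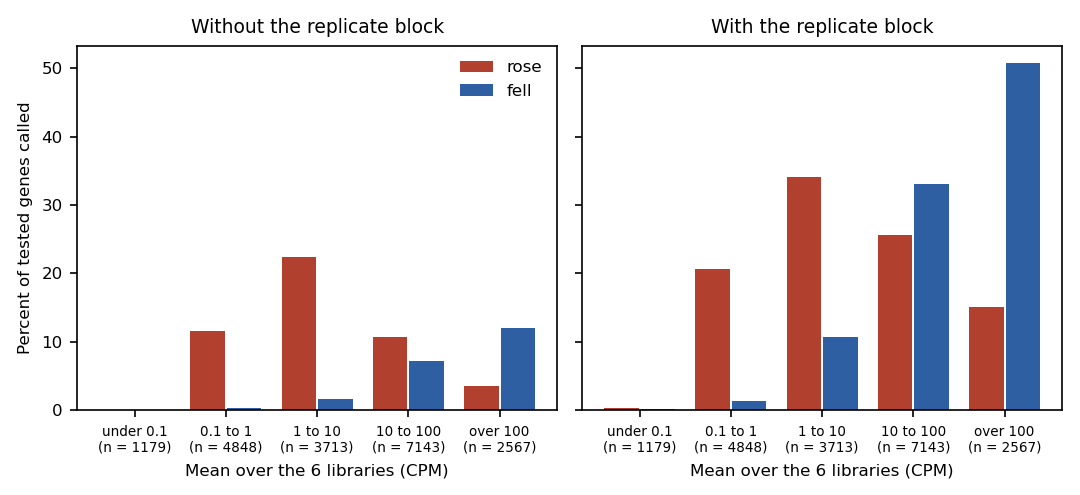
Bars give the percent of tested genes that rose or fell in bins of mean level over the 6 libraries (CPM), without and with the replicate block. Rises are most frequent at 1 to 10 CPM (22.4%) and falls above 100 CPM (12%), and with the block rises are also most frequent at 1 to 10 CPM (34.1%) and falls above 100 CPM (50.8%).

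Genes of cell division fell in large part. The mitosis list holds 54 genes for the spindle, the kinetochore (the protein plate by which a chromosome holds the spindle), chromosome condensation and the switch into and out of mitosis. All 54 were tested, 45 fell, none rose and the median log2 fold change was -1.37. Of the other members, 8 had negative values and fell with the block, and Pttg1, the securin that delays the separation of sister chromatids, was the exception (log2 fold change 0.75). The count of falls did not move by more than 1.5 times when any single library was left out. In these bulk libraries fewer dividing cells and less RNA of these genes per cell cannot be told apart.

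Among the kinesin motors, Kif11, which pushes the spindle poles apart, fell from 268, 282 and 167 CPM to 65.1, 65.6 and 48.5 CPM (log2 fold change -2.00 ± 0.27, adjusted p = 0.00258). Kif4, a motor that binds chromosome arms, fell from 73.5, 83.8 and 77.5 CPM to 25.1, 23.1 and 23.5 CPM (log2 fold change -1.71 ± 0.19, adjusted p = 0.0015). All 3 PB-4 libraries lay below all control libraries for both. Ccna2, cyclin A, which partners the kinases of S phase and of mitotic entry, fell from 290, 341 and 275 CPM to 94.4, 99.4 and 79.8 CPM (log2 fold change -1.73 ± 0.21, adjusted p = 0.00189), and Ccnb1, cyclin B, which starts mitosis with Cdk1, fell from 115, 131 and 123 CPM to 49, 49.7 and 33.2 CPM (log2 fold change -1.48 ± 0.23, adjusted p = 0.00423). Top2a, the topoisomerase that untangles DNA before chromosomes separate, fell from 809, 915 and 539 CPM to 257, 247 and 176 CPM (log2 fold change -1.74 ± 0.28, adjusted p = 0.00506). The groups did not overlap for these 3 genes either. Kinetochore genes moved in the same way, and Ndc80, which ties kinetochores to microtubules, fell from 52, 46.6 and 33.4 CPM to 13, 11.7 and 9.91 CPM (log2 fold change -1.93 ± 0.26, adjusted p = 0.00246). Its partner Nuf2 fell from 98, 110 and 69.6 CPM to 39, 40 and 21 CPM (log2 fold change -1.47 ± 0.31, adjusted p = 0.0148), a call that was lost without control replicate 1 or 2. Bub1, a kinase of the checkpoint that delays separation of chromosomes, fell from 153, 170 and 112 CPM to 46.4, 44.4 and 36 CPM (log2 fold change -1.78 ± 0.24, adjusted p = 0.00253). Mki67, the gene of the proliferation marker Ki-67, fell from 802, 798 and 453 CPM to 251, 237 and 206 CPM (log2 fold change -1.57 ± 0.27, adjusted p = 0.00704). The PB-4 libraries were lowest for each of these genes, with no overlap. Cdk1 itself fell from 151, 178 and 258 CPM to 68.2, 82.4 and 122 CPM (log2 fold change -1.11 ± 0.30, adjusted p = 0.0378), but this call was lost without control replicate 1, 2 or 3 and without PB-4 replicate 1 or 2, and with library totals or the ATRA libraries in the fit (adjusted p up to 0.148 over the alternatives).

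Genes that copy DNA fell with those of mitosis. Of 41 DNA replication genes 26 fell and none rose, with a median log2 fold change of -1.20, and 38 fell with the block. The count of falls was 17 without control replicate 1 or control replicate 2 and 13 without PB-4 replicate 2. Mcm4, a subunit of the helicase that opens the double helix, fell from 153, 175 and 168 CPM to 42, 45.2 and 51.1 CPM (log2 fold change -1.84 ± 0.20, adjusted p = 0.00129). Mcm10, which helps to start that helicase at replication origins, fell from 66.1, 75.3 and 83.9 CPM to 18.2, 25.2 and 25.4 CPM (log2 fold change -1.71 ± 0.23, adjusted p = 0.00248). Every PB-4 library was below every control library for both. Pola1, the polymerase that starts each new strand with primase, fell from 92.4, 92.7 and 77.3 CPM to 32.3, 22.1 and 27.7 CPM (log2 fold change -1.68 ± 0.23, adjusted p = 0.00255). Pole, the catalytic subunit of a replicative polymerase, fell from 109, 106 and 109 CPM to 31.2, 33.1 and 38.3 CPM (log2 fold change -1.66 ± 0.20, adjusted p = 0.00164). Rrm1, a subunit of the reductase that makes deoxynucleotides, fell from 401, 437 and 335 CPM to 136, 146 and 83.3 CPM (log2 fold change -1.68 ± 0.27, adjusted p = 0.005), and Tyms, which makes thymidylate, fell from 67.1, 78.2 and 73.7 CPM to 25.2, 25.8 and 25.3 CPM (log2 fold change -1.52 ± 0.19, adjusted p = 0.00209). For all 6 genes the groups were apart.

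Repair of broken or stalled DNA by homologous recombination and the Fanconi anemia proteins is most active while DNA is copied. Of 25 genes of these pathways 17 fell and none rose (median -1.28), and all 25 fell with the block. The count was 7 without PB-4 replicate 2 and 6 without control replicate 1 or control replicate 2. Chek1, the kinase that halts the cycle when replication stalls, fell from 75.4, 74.4 and 38.8 CPM to 18, 14.9 and 9.64 CPM (log2 fold change -2.15 ± 0.34, adjusted p = 0.00511). Exo1, a nuclease that trims broken ends, fell from 75.4, 77.8 and 66.3 CPM to 26.4, 29.4 and 28.3 CPM (log2 fold change -1.38 ± 0.20, adjusted p = 0.00309). The lowest control library was above the highest PB-4 library for both. Of 19 genes for E2F factors, pocket proteins and MuvB subunits, which switch cell cycle genes on and off, 5 fell and none rose (11 fell and 1 rose with the block). The 5 falls became 3 without PB-4 replicate 1 and 1 without PB-4 replicate 2, control replicate 1 or control replicate 2. Foxm1, the factor that drives genes of mitosis, fell from 205, 241 and 214 CPM to 72, 103 and 99.2 CPM (log2 fold change -1.26 ± 0.22, adjusted p = 0.00691).

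The genes of G1 did not move in one direction. Of 13 tested cyclins, kinases and inhibitors of G1, 1 rose and 3 fell (4 and 6 with the block), and the median was 0.02. The 1 rise, Cdkn1c, was lost without control replicate 1 or 2 and without PB-4 replicate 1, 2 or 3, and with the ATRA libraries in the fit. Cdk2, the kinase that starts S phase, fell from 224, 208 and 247 CPM to 94.7, 89.4 and 83.5 CPM (log2 fold change -1.34 ± 0.19, adjusted p = 0.00322), and its partner Ccne2, a cyclin E, fell from 40.8, 56.2 and 26.1 CPM to 12.5, 10.3 and 7.16 CPM (log2 fold change -2.03 ± 0.34, adjusted p = 0.00644). The groups were apart for both. The annotated span of Cdk2 lies inside that of Pmel, a more highly counted pigment gene that also fell. Without a known strand setting, reads at this locus may not be fully told apart. Ccnd1, cyclin D1, the link from growth signals to the cycle, fell from 165, 230 and 283 CPM to 56.1, 71.8 and 107 CPM (log2 fold change -1.53 ± 0.31, adjusted p = 0.0131), a call that was lost without PB-4 replicate 2 (adjusted p = 0.0656). Cdkn1a, the kinase inhibitor p21, had 102, 134 and 237 CPM in the control libraries and 159, 175 and 283 CPM in the PB-4 libraries (log2 fold change 0.38 ± 0.36, adjusted p = 0.505, and 0.00511 with the block). Its groups overlapped. Cdkn1b, the inhibitor p27, had 224, 203 and 131 CPM in the control libraries and 222, 213 and 135 CPM in the PB-4 libraries (log2 fold change 0.03 ± 0.28, adjusted p = 0.952, and 0.838 with the block), again with overlap.

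**Figure D3:**
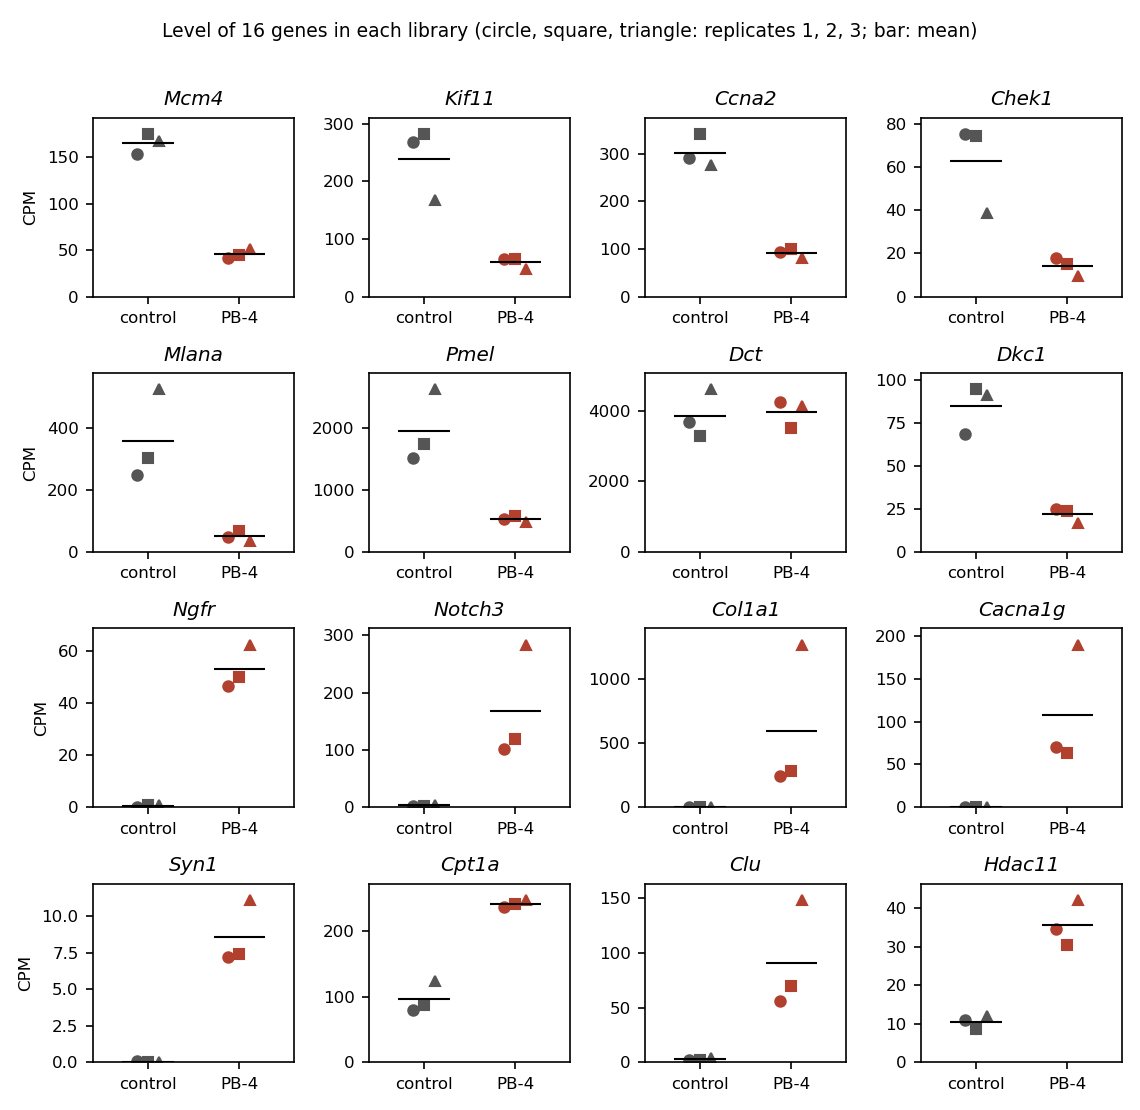
Levels of 16 genes in the 6 libraries, each panel with CPM from 0 on the y axis and the control and PB-4 groups on the x axis. Circles, squares and triangles are replicates 1, 2 and 3 and bars are group means. Mcm4, Kif11, Ccna2, Chek1, Mlana, Pmel and Dkc1 sit lower in every PB-4 library, Ngfr, Notch3, Col1a1, Cacna1g, Syn1, Cpt1a, Clu and Hdac11 sit higher in every one, and the Dct groups overlap.

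Promoter sequence was looked at in these lists because the genes of mitosis and those of replication are known to carry different short elements. Genes of mitosis often hold a cell cycle homology region, with the letters TTTGAA, which the MuvB complex binds, and genes of replication often hold a site for E2F factors, here searched as TTCCCGCC. RefSeq promoter windows of 300 bases (250 before and 50 after a start site, GRCm38.p6) were matched for 12450 tested genes, and matches on both strands were counted. The letters and the lists were chosen with the changes known, so the shares are descriptions. TTTGAA lay within 50 bases of the start in 28 of 45 matched mitosis genes (62.2%), against 3.38% of all windows, 2.1% of genes that rose and 10.4% of genes that fell. The last share includes mitosis genes, and it was 7.72% for genes that fell outside the mitosis list. At any place in the window, TTCCCGCC lay in none of the 45 mitosis genes but in 6 of 33 replication genes (18.2%). The shares were 3.65% of all windows, 2.29% of genes that rose and 9.97% of genes that fell. Within 50 bases of the start it lay in 5 of the 33 (15.2%), against 1.29% of all windows and 4.61% of genes that fell. CCAAT, the letters of the NF-Y site, lay in 73.3% of mitosis windows, 60.6% of replication windows and 38.3% of all. E2F matches overlapped CCAAT in 5 of 466 cases and TTTGAA matches in 18 of 1750. Within the mitosis list, 21 of 28 genes with TTTGAA near the start and 16 of 17 without it fell, with median log2 fold changes of -1.51 and -1.34. Within the replication list, 4 of 5 genes with TTCCCGCC near the start and 17 of 28 without it fell, with medians of -1.13 and -1.21.

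The following 30-base stretches show the TTTGAA letters (capitals, read as TTCAAA where they lie on the opposite strand) beside the start sites of 3 mitosis genes that fell, written in the direction of the gene. They lie at chrX:100626072-100626101 on the plus strand for Kif4, chr17:71526811-71526840 on the minus strand for Ndc80 and chr19:37376351-37376380 on the plus strand for Kif11, all in GRCm38.p6.
Kif4: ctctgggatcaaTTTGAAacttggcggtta
Ndc80: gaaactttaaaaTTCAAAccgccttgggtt
Kif11: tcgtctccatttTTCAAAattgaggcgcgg
Counting the start site as the first base, the element began at base 20 in Kif4 and at base 30 in Ndc80. In Kif11 it began 19 bases before the start site.

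For comparison, the next stretches show the E2F letters (capitals, read as GGCGGGAA on the opposite strand) in 3 replication genes that fell. Rfc4 codes for a subunit of the loader that places the sliding clamp on DNA, Chaf1a for a subunit of the assembly factor that puts histones on new DNA, and Mcm3 for a subunit of the replicative helicase. They lie at chr16:23127702-23127731 on the minus strand, chr17:56040358-56040387 on the plus strand and chr1:20820276-20820305 on the minus strand (GRCm38.p6).
Rfc4: cgccgttctgtGGCGGGAAccgcggtgcca
Chaf1a: ggttgccgcggTTCCCGCCaaatacgagcg
Mcm3: taaacttccgtGGCGGGAAaacttgggaag
Rfc4 fell from 40.9, 44.8 and 40.7 CPM to 19.6, 18.7 and 14 CPM (log2 fold change -1.27 ± 0.22, adjusted p = 0.00721), and the groups were apart. The genes of both sets were chosen after their values had been seen.

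Among other letters searched, CCGGAAG, a site for ETS factors, lay in 24.1% of windows of genes that fell, 5.07% of those that rose and 15.7% of all. Among genes at 10 to 100 CPM the shares were 26.3% for genes that fell, 6.32% for those that rose and 23.2% for genes not called. TGACTCA, the AP-1 site, lay in 5.13% of windows of genes that rose, 2.08% of those that fell and 3.89% of all. The median number of CG pairs in a window was 24 for genes that fell, 15 for those that rose and 19 for all.

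Histone genes that are read while DNA is copied showed how replicate 3 stood apart. Their mRNAs mostly lack a poly(A) tail, and none of the 56 tested members passed in either direction, although the median log2 fold change was -0.68 and 29 fell with the block. Their summed level was 4803, 4903 and 11880 CPM in the control libraries and 1737, 2031 and 9665 CPM in the PB-4 libraries. It was lower with PB-4 in each pair of equal replicate number, but replicate 3 with PB-4 was above control replicates 1 and 2. Without PB-4 replicate 3, 24 fell, and with replicates 1 and 2 alone 38 did.

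Genes of ribosome production fell with those of division. Of 26 nucleolar genes and genes that the growth factor Myc is known to drive, 12 fell and none rose (median -0.83), with 17 falls and 2 rises under the block. The count of falls was 7 without control replicate 1, 5 without control replicate 2 and 4 without PB-4 replicate 2. Dkc1, which modifies ribosomal RNA and holds telomerase RNA, fell from 68.5, 94.8 and 91.6 CPM to 24.9, 23.9 and 17 CPM (log2 fold change -1.95 ± 0.25, adjusted p = 0.00211). Nop56, a core protein of the particles that methylate ribosomal RNA, fell from 196, 233 and 245 CPM to 86.2, 104 and 85.6 CPM (log2 fold change -1.29 ± 0.21, adjusted p = 0.00485). Npm1, nucleophosmin, one of the most abundant proteins of the nucleolus, fell from 719, 870 and 752 CPM to 268, 192 and 141 CPM (log2 fold change -1.96 ± 0.28, adjusted p = 0.00318). No PB-4 library reached the control range for these 3 genes. Tfrc, the transferrin receptor that brings iron into growing cells, fell from 1055, 1249 and 520 CPM to 287, 263 and 126 CPM (log2 fold change -2.06 ± 0.42, adjusted p = 0.013), with no overlap of the groups. The 76 genes of cytosolic ribosomal proteins had a median of -0.48 with 2 falls, against 57 with the block. Their sum was 14946, 17205 and 31763 CPM in the control libraries and 12182, 12991 and 22885 CPM in the PB-4 libraries, lower with PB-4 in each pair. The 2 falls became 1 without PB-4 replicate 1 and 0 without PB-4 replicate 2, control replicate 1 or control replicate 2.

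Enzymes and readers of chromatin mostly fell where they were called. Of 35 tested, 10 fell and 1 rose (18 and 7 with the block, median -0.36), and the falls were 6 without control replicate 1, 5 without control replicate 2 and 3 without PB-4 replicate 2. The 1 rise, Kdm5b, was lost without control replicate 2. Suv39h2, a methyltransferase that marks silent chromatin, fell from 18.5, 20.6 and 16.6 CPM to 6.17, 5.78 and 6.19 CPM (log2 fold change -1.62 ± 0.26, adjusted p = 0.00485). Hells, a remodeler needed for DNA methylation, fell from 237, 241 and 114 CPM to 65.8, 44.8 and 37.5 CPM (log2 fold change -2.00 ± 0.35, adjusted p = 0.00721). Both are also known to be higher in dividing cells, and their groups did not overlap.

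The histone deacetylases are the enzymes that PB-4 is known to block. Of the 11 zinc-dependent histone deacetylases 2 rose and none fell (4 and 2 with the block, median 0.15). Hdac11 rose from 11, 8.69 and 11.9 CPM to 34.5, 30.3 and 42.1 CPM (log2 fold change 1.76 ± 0.25, adjusted p = 0.00311) and Hdac9 rose from 2.11, 1.41 and 1.84 CPM to 8.17, 9.57 and 9.29 CPM (log2 fold change 2.33 ± 0.36, adjusted p = 0.00405). All PB-4 libraries were above all control libraries for both. Of 11 genes known to rise with inhibitors of these enzymes 4 rose and none fell (median 0.69), and 9 rose with the block. Clu, clusterin, a secreted chaperone, rose from 2.07, 2.53 and 4.37 CPM to 55.7, 69.2 and 148 CPM (log2 fold change 4.95 ± 0.49, adjusted p = 9.5e-04). Tubb3, the tubulin isotype typical of neurons, rose from 30.6, 40.6 and 42.4 CPM to 97.2, 111 and 198 CPM (log2 fold change 1.84 ± 0.31, adjusted p = 0.00641). Glrx, glutaredoxin, which reduces disulfides of proteins, rose from 9.75, 11 and 11.4 CPM to 25.3, 31.9 and 27.3 CPM (log2 fold change 1.40 ± 0.23, adjusted p = 0.00562). The groups were apart for the 3 genes.

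The p53 response and the BCL2 family bear on cell arrest and death. Of 27 p53 targets 3 rose and none fell (11 and 4 with the block, median 0.35), and 6 rose without control replicate 3. The share that rose was near the 11.5% of all genes tested. Btg2, which slows cell division, rose from 18.2, 23.3 and 19.3 CPM to 49.2, 44.5 and 80.5 CPM (log2 fold change 1.52 ± 0.28, adjusted p = 0.00895), and Fas, a death receptor at the cell surface, rose from 0.192, 1.12 and 0.443 CPM to 7.61, 6.4 and 3.44 CPM (log2 fold change 3.28 ± 0.67, adjusted p = 0.0141). Of 17 genes of the BCL2 family, which decide whether mitochondria release death signals, 5 rose and none fell (9 and 4 with the block). The 5 rises were 3 without PB-4 replicate 3 and 2 without PB-4 replicate 2, control replicate 1 or control replicate 2, and 3 of the 14 with at least 10 control counts rose. Bmf, a member that promotes death, rose from 19.2, 12.5 and 14 CPM to 109, 99.8 and 133 CPM (log2 fold change 2.90 ± 0.26, adjusted p = 7.0e-04), and Hrk, another one, rose from 0, 0 and 0 CPM to 1.35, 0.64 and 1.72 CPM (at least 25.7-fold higher against a floor of 3 counts over the control group, adjusted p = 0.00781). None of these 4 genes had overlapping groups.

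Pigment genes fell in part. Of 21 genes for melanin enzymes and melanosome proteins 6 fell and none rose (14 and 1 with the block), with a median of -0.91. Mlana, a melanosome protein and the antigen MART-1, fell from 248, 303 and 526 CPM to 48.2, 68.3 and 35.1 CPM (log2 fold change -2.83 ± 0.37, adjusted p = 0.00242). Pmel, the fibril protein of the melanosome, fell from 1509, 1732 and 2614 CPM to 531, 573 and 482 CPM (log2 fold change -1.88 ± 0.27, adjusted p = 0.00322). Every PB-4 library was below every control library for both, and PB-4 replicate 3 was the lowest. Slc45a2, a transporter that keeps the melanosome at the pH tyrosinase needs, fell from 209, 252 and 393 CPM to 83.8, 81.1 and 73.4 CPM (log2 fold change -1.84 ± 0.27, adjusted p = 0.00366), with no overlap. Tyrp1, an enzyme of eumelanin synthesis, fell from 6290, 6748 and 5924 CPM to 2735, 3116 and 1587 CPM (log2 fold change -1.35 ± 0.29, adjusted p = 0.0169), and this call was lost without control replicate 1 or 2 or PB-4 replicate 2 (adjusted p up to 0.0704). Dct, the enzyme next to it in the pathway, had 3676, 3287 and 4603 CPM in the control libraries and 4251, 3509 and 4119 CPM in the PB-4 libraries (log2 fold change 0.04 ± 0.23, adjusted p = 0.93, and 0.806 with the block), and its groups overlapped. Tyr, tyrosinase, the rate-limiting enzyme of melanin synthesis, had 7.26, 5.12 and 16.4 CPM in the control libraries and 3.98, 2.38 and 8.95 CPM in the PB-4 libraries (log2 fold change -0.92 ± 0.59, adjusted p = 0.33, and 0.00364 with the block). Its groups overlapped, and each PB-4 library was below the control library of the same number.

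The factors that set the melanocyte lineage did not move together. Of 16 tested 2 rose and none fell, with 5 and 2 under the block and a median of 0.07. The rises were 1 without PB-4 replicate 1, PB-4 replicate 3, control replicate 1, control replicate 2 or control replicate 3 and 0 without PB-4 replicate 2. Mitf, the master regulator of melanocytes, had 514, 422 and 301 CPM in the control libraries and 665, 433 and 209 CPM in the PB-4 libraries (log2 fold change 0.08 ± 0.40, adjusted p = 0.918, and 0.866 with the block). Sox10, the neural crest factor that keeps the lineage, had 337, 284 and 442 CPM in the control libraries and 330, 318 and 455 CPM in the PB-4 libraries (log2 fold change 0.05 ± 0.25, adjusted p = 0.911, and 0.717 with the block). For both the values of the groups overlapped, and for Mitf replicate 3 was lower than replicates 1 and 2 in each group.

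Chaperones of the endoplasmic reticulum fold secreted and membrane proteins. Of 25 tested genes of these chaperones and the unfolded protein response 4 fell and none rose (12 and 3 with the block, median -0.25), and the falls were 1 without PB-4 replicate 3 and 0 without PB-4 replicate 2, control replicate 1 or control replicate 2, and 1 with library totals. Hspa5, the chaperone BiP and the usual reporter of this response, fell from 795, 869 and 947 CPM to 546, 456 and 361 CPM (log2 fold change -0.94 ± 0.23, adjusted p = 0.0276). This call was lost with library totals, without control replicate 1 or 2 and without PB-4 replicate 2 or 3 (adjusted p up to 0.143). Hsp90b1, its partner GRP94, fell from 2191, 2231 and 1445 CPM to 1044, 800 and 494 CPM (log2 fold change -1.33 ± 0.32, adjusted p = 0.027), a call lost without PB-4 replicate 2 or control replicate 1 or 2. ATF4 is the factor of amino acid shortage, and of its 22 tested targets 6 fell and 2 rose (13 and 3 with the block, median -0.62). The falls were 3 without PB-4 replicate 1 and 2 without PB-4 replicate 2, control replicate 1 or control replicate 2 and the rises 1 without PB-4 replicate 2, PB-4 replicate 3 or control replicate 1 and 0 without control replicate 2. Psat1, an enzyme of serine synthesis, fell from 413, 412 and 462 CPM to 172, 189 and 163 CPM (log2 fold change -1.30 ± 0.20, adjusted p = 0.00398), and Mthfd2, which makes mitochondrial one-carbon units, fell from 119, 125 and 169 CPM to 50.1, 58 and 43.7 CPM (log2 fold change -1.45 ± 0.23, adjusted p = 0.00489). Their groups were apart.

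Heat shock genes split in direction. Of 16 tested 3 rose and 5 fell (4 and 10 with the block), and the falls were 2 without control replicate 1 and 1 without PB-4 replicate 2 or control replicate 2. Hspd1, the mitochondrial chaperonin Hsp60, fell from 853, 1049 and 1090 CPM to 365, 325 and 268 CPM (log2 fold change -1.64 ± 0.23, adjusted p = 0.00283). Hspa2, an HSP70 best known from the testis, rose from 10, 7.74 and 11.7 CPM to 30.7, 38.7 and 35.9 CPM (log2 fold change 1.84 ± 0.25, adjusted p = 0.00276), and Hspb1, the small heat shock protein that guards actin, rose from 1.5, 1.77 and 2.09 CPM to 14.9, 18.4 and 58.9 CPM (log2 fold change 4.10 ± 0.58, adjusted p = 0.00313). The groups did not overlap for these genes. Of 17 NRF2 targets, which answer oxidative stress, 1 rose and 1 fell, with 5 and 9 under the block and a median log2 fold change of -0.43. The 1 fall, Gsr, was lost without control replicate 2 and without PB-4 replicate 1 or 2. Gsta4, a glutathione transferase for products of oxidized lipid, rose from 0, 0 and 0.0633 CPM to 4.62, 2.94 and 27.9 CPM (636 counts in all against 1, a ratio of 584 with a 95% counting interval of 104 to 23115, adjusted p = 0.00423). It was the only member of that list to rise.

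Lipid genes were called in both directions. Of 11 genes of fatty acid synthesis 1 rose and 4 fell, with 2 and 7 under the block and a median log2 fold change of -0.48. The falls were 2 without PB-4 replicate 1, control replicate 1 or control replicate 2 and 0 without PB-4 replicate 2 and the rise, Acss2, was lost without control replicate 1 or 2. Fasn, the synthase itself, fell from 1155, 1208 and 1901 CPM to 458, 541 and 716 CPM (log2 fold change -1.31 ± 0.29, adjusted p = 0.0179), a call lost without PB-4 replicate 1 or 2. Of 18 tested genes of fatty acid uptake and oxidation 3 rose and 1 fell, with 10 and 2 under the block and a median log2 fold change of 0.39. The 1 fall, Fabp5, was lost without PB-4 replicate 1 or 2. Cpt1a, which lets long fatty acids into mitochondria, rose from 80.1, 86.6 and 124 CPM to 236, 241 and 247 CPM (log2 fold change 1.32 ± 0.23, adjusted p = 0.00721), and Cd36, a fatty acid receptor, rose from 0.499, 0.262 and 0.0633 CPM to 19.7, 16.7 and 3.37 CPM (log2 fold change 5.49 ± 0.84, adjusted p = 0.00423). All PB-4 libraries exceeded all control libraries for both. Whether the lists differ from each other was not tested. Of 23 cholesterol genes 1 rose and 4 fell, with 3 and 13 under the block and a median log2 fold change of -0.58. The falls were 2 without PB-4 replicate 1, control replicate 2 or control replicate 3, 1 without control replicate 1 and 0 without PB-4 replicate 2.

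Genes of carbon use and respiration were read next. Of 27 glycolysis and hypoxia genes 2 rose and 3 fell, with 7 and 16 under the block and a median log2 fold change of -0.41. The falls were 1 without PB-4 replicate 1, PB-4 replicate 2 or control replicate 1 and the rises 1 without control replicate 2. Eno2, the neuronal isoform of enolase, rose from 11.5, 12 and 6.02 CPM to 41.3, 40.9 and 35.9 CPM (log2 fold change 2.00 ± 0.30, adjusted p = 0.004), with no overlap of the groups. Of 74 nuclear genes of the respiratory chain and ATP synthase none was called (7 rose and 21 fell with the block, median -0.12), and 1 rose when PB-4 replicate 1 or control replicate 3 was left out. Of 33 lysosome and autophagy genes 2 rose and 1 fell, with 14 and 6 under the block and a median log2 fold change of 0.19. The rises were 5 without control replicate 3 and 0 without PB-4 replicate 1, PB-4 replicate 2, control replicate 1 or control replicate 2, and the fall, Atp6v1h, was lost without control replicate 1, 2 or 3 and without PB-4 replicate 2 or 3, and with library totals.

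Markers of other cells were read beside the groups that rose, because fibroblasts, muscle, glia and neurons express many of their genes. Melanocyte markers summed to 12790, 13033 and 14820 CPM in the control libraries and 8648, 8102 and 6969 CPM in the PB-4 libraries, and 4 of 8 fell (5 with the block). Of 8 fibroblast markers 7 were tested and 4 rose, namely Col1a1, Col3a1, Lum and Pdgfra (also 4 with the block). The fibroblast markers summed to 17.1, 14.9 and 8.3 CPM in the control libraries and 344, 378 and 1374 CPM in the PB-4 libraries, and with PB-4 most of the sum was Col1a1. Thy1, a defining fibroblast surface marker, had 0 counts in all 6 libraries, and Dcn, decorin, went from 0, 1 and 0 control counts to 7, 9 and 1 with PB-4. Keratinocyte markers were nearly absent, with a sum of 0.0768, 0 and 0.19 CPM in the control libraries and 4.14, 1.28 and 0.895 CPM in the PB-4 libraries. Krt1 and Ivl had 0 counts in every library, and Trp63 was the only one tested and rose, with and without the block.

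Immune markers summed to 13.6, 12 and 16.5 CPM in the control libraries and 39.6, 43.6 and 37 CPM in the PB-4 libraries. Of 8 markers 5 were tested and 2 rose, namely Lyz2 and Adgre1 (4 with the block and 1 when any single library was left out). Cd3e had 0 counts in all libraries. The defining marker Ptprc, CD45, held 5, 4 and 0 control counts and 22, 40 and 1 with PB-4. Endothelial markers summed to 0.307, 0.492 and 0.19 CPM in the control libraries and 6.53, 7.01 and 13.9 CPM in the PB-4 libraries, 1 of 3 tested rose (Vwf), all 3 did with the block, and Kdr and Cldn5 had 0 counts in all libraries. Schwann cell markers summed to 136, 133 and 196 CPM in the control libraries and 234, 221 and 279 CPM in the PB-4 libraries, and 1 of 6 rose (S100b), with 3 under the block. The count was 3 without control replicate 3 and 2 without PB-4 replicate 1. Of 6 skeletal muscle markers 4 were tested and 2 rose, namely Des and Tnnt3 (3 with the block and 1 without control replicate 2). The muscle markers summed to 6.91, 10.1 and 19.1 CPM in the control libraries and 54.8, 55.8 and 90.2 CPM in the PB-4 libraries. The lineage factor Myod1 had 0 counts in all libraries. Adipocyte markers summed to 0.23, 0.0328 and 0.127 CPM in the control libraries and 1.12, 0.768 and 2.75 CPM in the PB-4 libraries, with no overlap, and of 4 tested none was called but 2 rose with the block. What part these markers have in the rises of matrix, muscle and neuronal genes was not tested.

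Many ion channel genes rose. These membrane proteins set the electrical activity of neurons, muscle and gland cells. Of 29 tested genes for voltage-gated sodium and calcium channels 17 rose and none fell (23 and none with the block), with a median log2 fold change of 4.32 (3.03 with the 7 genes absent from the control libraries set at their lower bound). The 17 rises became 10 without control replicate 2. Cacna1g, a T-type calcium channel that opens near the resting potential, rose from 0, 0 and 0.38 CPM to 70.4, 63.3 and 190 CPM (log2 fold change 10.18 ± 1.01, adjusted p = 9.5e-04). It had 0 counts in control replicates 1 and 2 and 6 in replicate 3, against at least 1768 in each PB-4 library. Cacna2d2, a subunit that carries calcium channels to the membrane, rose from 0.154, 0.131 and 0.19 CPM to 17.2, 20.2 and 24.8 CPM (log2 fold change 7.03 ± 0.40, adjusted p = 2.5e-04). The groups were far apart for both genes, and PB-4 replicate 3 was the highest library.

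Of 92 potassium channel genes 42 were tested, 30 had no count in any library, and 22 rose with none falling (25 and none with the block). The median was 2.97, and 2.70 with 9 genes at their bound. The count was 14 without PB-4 replicate 1 and 13 without control replicate 1 or control replicate 2. Kcnj4, an inward rectifier of neurons, rose from 0.538, 0.197 and 0.633 CPM to 29.5, 31.2 and 38.5 CPM (log2 fold change 6.23 ± 0.45, adjusted p = 3.7e-04). Kcnh2, the hERG channel that ends the heart's action potential, rose from 2, 1.18 and 6.97 CPM to 50.3, 62.2 and 98.1 CPM (log2 fold change 4.42 ± 0.65, adjusted p = 0.00366). Kcnn1, a channel opened by calcium, rose from 0.998, 0.525 and 0.633 CPM to 6.21, 7.29 and 13.4 CPM (log2 fold change 3.62 ± 0.49, adjusted p = 0.00279). No control library reached the PB-4 range. Of 23 tested ligand-gated channels 12 rose and none fell (17 and 1 with the block, median 2.72, or 2.60 with 4 at their bound), and the rises were 6 without PB-4 replicate 2 and 5 without control replicate 2. Grin2d, a subunit of the NMDA receptor for glutamate, rose from 0, 0 and 0.0633 CPM to 1.08, 1.89 and 2.96 CPM (144 counts in all against 1, a ratio of 132 with a 95% counting interval of 23.4 to 5261, adjusted p = 0.00451). Over the genes with at least 10 control counts, 8 of 12 sodium and calcium, 11 of 26 potassium and 6 of 13 ligand-gated channels rose, with median log2 fold changes of 2.49, 1.22 and 1.40.

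Many genes of the synapse and some of regulated secretion rose too. Of 20 tested genes of synaptic vesicles and the neuronal cytoskeleton 10 rose and none fell (15 and none with the block, median 1.38), and the count was 6 without control replicate 1. Syn1, synapsin, which tethers synaptic vesicles, rose from 0.0768, 0.0328 and 0 CPM to 7.21, 7.42 and 11.1 CPM (633 counts in all against 3, a ratio of 194 with a 95% counting interval of 66 to 943, adjusted p = 7.0e-04). Syp, synaptophysin, a vesicle membrane protein, rose from 2.61, 2.2 and 1.9 CPM to 28.4, 25.5 and 52 CPM (log2 fold change 3.97 ± 0.37, adjusted p = 7.4e-04). Mapt, the microtubule protein tau, rose from 13, 12.6 and 13.4 CPM to 33.7, 31.7 and 38 CPM (log2 fold change 1.41 ± 0.21, adjusted p = 0.00402). The lowest PB-4 library was above the highest control library for each. Over genes with at least 10 control counts 9 of 18 of this list rose. Of 10 tested prohormones and granule genes 3 rose and none fell (5 with the block, median 2.34, or 1.91 with 2 at their bound). Of the 6 with at least 10 control counts 2 rose, and their median was 0.32. Syt13, a synaptotagmin, rose from 0.0768, 0.0984 and 0.443 CPM to 33.8, 32.2 and 84 CPM (log2 fold change 8.11 ± 0.71, adjusted p = 7.0e-04), and Pam, the enzyme that amidates peptide hormones, rose from 50.7, 52.6 and 56.9 CPM to 107, 130 and 115 CPM (log2 fold change 1.14 ± 0.19, adjusted p = 0.00629). Of 10 tested genes for gangliosides and sialic acid transfer 2 rose and 1 fell, with 6 and 3 under the block and a median log2 fold change of 0.46. The fall, St3gal4, was lost without control replicate 1 or 2 and without PB-4 replicate 1 or 2.

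Genes of the extracellular matrix rose as well. Of 40 tested collagen chains 18 rose and 1 fell (23 and 1 with the block), with a median of 2.19. Col1a1, the main chain of fibrillar collagen in skin and bone, rose from 3.46, 3.44 and 0.823 CPM to 241, 282 and 1269 CPM (log2 fold change 7.82 ± 0.92, adjusted p = 0.00177). Control replicate 3 was the lowest library and PB-4 replicate 3 the highest, and with the block the adjusted p was 0.0499. Col1a2, the chain that joins it in type I collagen, had 3.3, 2.75 and 4.43 CPM in the control libraries and 3.94, 2.41 and 12 CPM in the PB-4 libraries (log2 fold change 0.80 ± 0.60, adjusted p = 0.404, and 0.245 with the block), with the highest level in PB-4 replicate 3. Col6a3, a chain of the beaded filaments around cells, rose from 1.11, 0.951 and 0.317 CPM to 34.9, 37.3 and 25.8 CPM (log2 fold change 5.30 ± 0.45, adjusted p = 5.9e-04), and Col6a1 rose from 0.422, 0.197 and 0.19 CPM to 15.6, 17.7 and 51.8 CPM (log2 fold change 6.66 ± 0.66, adjusted p = 9.7e-04). Their groups were apart. The fall was Col15a1, a basement membrane collagen (log2 fold change -1.75), which was lost without control replicate 1 or 2 or PB-4 replicate 1 or 2.

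Of 37 tested matrix glycoproteins and laminins 14 rose and 1 fell (26 and 3 with the block, median 1.39), and 8 rose without control replicate 2. Eln, elastin, rose from 0.922, 0.656 and 0.317 CPM to 8.72, 11.9 and 29.5 CPM (log2 fold change 4.67 ± 0.62, adjusted p = 0.00246). Postn, periostin, a matrix protein of tissue under strain or repair, rose from 4.45, 7.05 and 3.67 CPM to 39.8, 33.4 and 44 CPM (log2 fold change 2.94 ± 0.31, adjusted p = 0.00129). Tgfbi, an adhesion protein that TGF-beta induces, rose from 0, 0 and 0.0633 CPM to 2.71, 3.74 and 13.3 CPM (407 counts in all against 1, a ratio of 374 with a 95% counting interval of 66.7 to 14805, adjusted p = 0.00293). Loxl1, the oxidase that cross-links elastin, rose from 0, 0 and 0.0633 CPM to 4.3, 7.24 and 30.4 CPM (833 counts in all against 1, a ratio of 765 with a 95% counting interval of 137 to 30264, adjusted p = 0.00247). All PB-4 libraries exceeded all control libraries for the 4 genes. The fall was Nid1, nidogen of basement membranes (log2 fold change -1.28), which was lost without control replicate 1 or 2 and without any 1 of the PB-4 libraries. Over genes with at least 10 control counts 12 of 30 collagens and 9 of 27 matrix genes rose, with medians of 1.28 and 0.98.

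Integrins, the receptors by which cells hold the matrix, rose in 12 of 22 tested genes and fell in none (14 and 1 with the block, median 1.51). The count was 7 without PB-4 replicate 2, 5 without control replicate 1 and 4 without control replicate 2. Itgb3, the beta chain of the receptor for vitronectin and a known marker of invasive melanoma, rose from 69.3, 55.7 and 50.4 CPM to 167, 165 and 147 CPM (log2 fold change 1.45 ± 0.21, adjusted p = 0.00325). Itga8, a receptor chain for nephronectin and fibronectin, rose from 0.346, 0.394 and 0.127 CPM to 19.9, 12.9 and 9.91 CPM (log2 fold change 5.53 ± 0.52, adjusted p = 8.1e-04). Itgb1, the beta chain most integrins share, had 621, 640 and 462 CPM in the control libraries and 475, 385 and 230 CPM in the PB-4 libraries (log2 fold change -0.66 ± 0.30, adjusted p = 0.166, and 1.0e-04 with the block). The groups were apart for Itgb3 and Itga8 and overlapped for Itgb1. Of 18 tested receptor tyrosine kinases 8 rose and none fell (12 and 1 with the block, median 1.12). Ngfr, the nerve growth factor receptor of neural crest cells, rose from 0.115, 0.918 and 0.76 CPM to 46.7, 50.3 and 62.6 CPM (log2 fold change 6.47 ± 0.58, adjusted p = 7.0e-04). Its list holds it as a growth factor receptor although it lacks a kinase. Axl, a receptor known from melanoma cells with low Mitf, rose from 23.8, 22.9 and 26.2 CPM to 116, 126 and 159 CPM (log2 fold change 2.46 ± 0.22, adjusted p = 6.8e-04). Pdgfra, a receptor for platelet-derived growth factor, rose from 10.1, 8.26 and 2.79 CPM to 92.4, 86.7 and 67.9 CPM (log2 fold change 3.53 ± 0.44, adjusted p = 0.0021). No control library overlapped the PB-4 range for these genes. Over genes with at least 10 control counts 10 of 19 integrins and 6 of 14 receptor kinases rose, with medians of 1.37 and 0.46.

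Lists of the cytoskeleton and of adhesion between cells were also read. Of 17 tested muscle and actin genes 4 rose and 1 fell, with 8 and 2 under the block and a median log2 fold change of 1.04. The rises were 7 without control replicate 3 and 2 without control replicate 2, and the fall, Tpm4, was lost without control replicate 2 and without PB-4 replicate 2. Des, desmin, the intermediate filament of muscle, rose from 6.8, 9.87 and 18.4 CPM to 52.9, 54.6 and 82.7 CPM (log2 fold change 2.44 ± 0.39, adjusted p = 0.00514), with no overlap. Of 19 tubulin isotypes 4 rose and 1 fell, with 6 and 4 under the block and a median log2 fold change of 0.15. The rises were 2 without PB-4 replicate 2, PB-4 replicate 3, control replicate 1 or control replicate 2 and the fall, Tube1, was lost without control replicate 1 or 2 and without PB-4 replicate 1, 2 or 3, and with library totals. Of 18 tested cadherins and regulators of epithelial to mesenchymal change 1 rose and 0 fell, with 6 and 3 under the block and a median log2 fold change of 0.74. The count of rises was 2 without PB-4 replicate 3 or control replicate 3. Over the 12 with at least 10 control counts none rose and the median was -0.14. Cdh15, M-cadherin of muscle precursors, rose from 0.0384, 0.131 and 0.0633 CPM to 2.03, 1.36 and 8.74 CPM (log2 fold change 5.54 ± 0.97, adjusted p = 0.0074). Of 50 keratins 9 were tested, and 2 rose and 0 fell, with 3 and 0 under the block and a median log2 fold change of 2.04. The 1 keratin with at least 10 control counts did not pass. The rises were 1 without PB-4 replicate 1 or control replicate 3 and 0 without PB-4 replicate 2, PB-4 replicate 3, control replicate 1 or control replicate 2. Of 51 tested clustered protocadherins, which give neurons their identity at contacts, 4 rose and 0 fell, with 14 and 6 under the block and a median log2 fold change of 0.00. The rises were 2 without PB-4 replicate 2 or control replicate 1, 1 without control replicate 2 and 0 without PB-4 replicate 1.

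**Figure D4:**
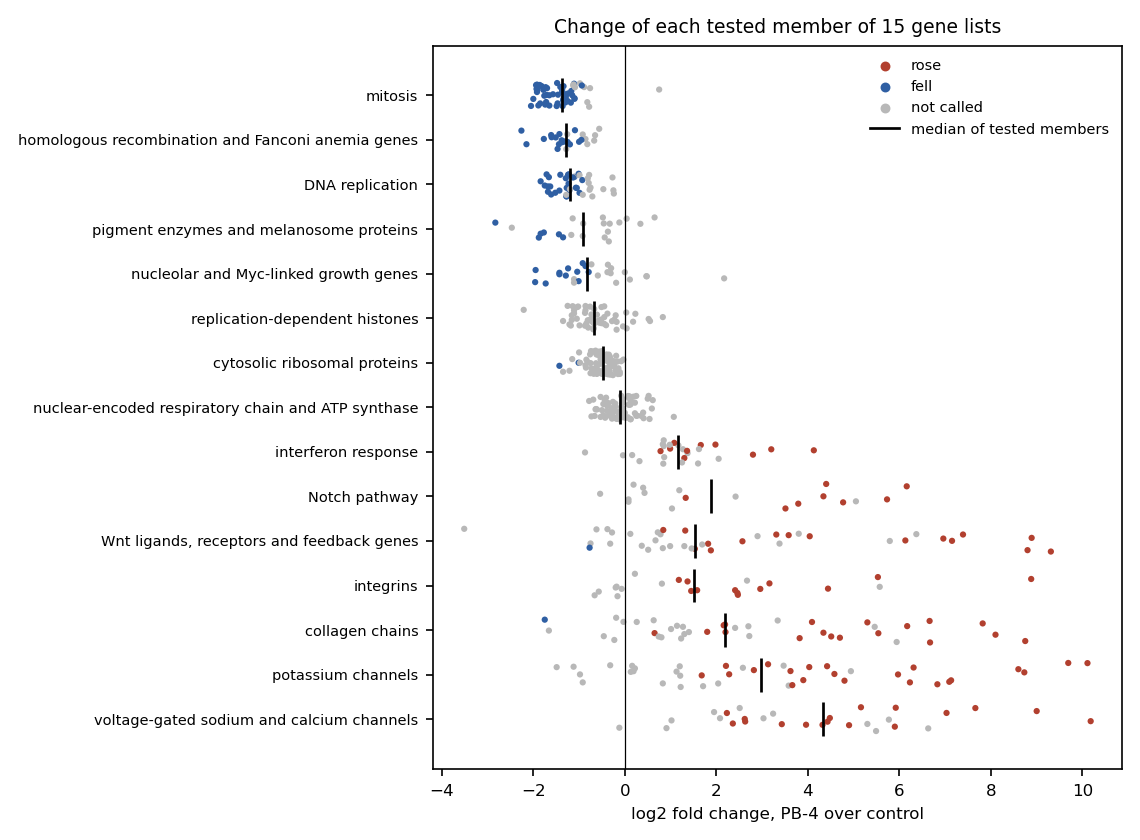
Log2 fold change of PB-4 over control (x axis) for every tested member of 15 gene lists, 1 row a list, with red for genes that rose, blue for those that fell, grey for those not called and a black bar at the median. Mitosis genes lie to the left of 0 except for 1, ion channel and collagen genes spread to the right, and fitted values of genes with 0 control counts depend on the prior count and are no bounds.

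Signalling pathways of development rose in many members. In Wnt signalling, ligands bind Frizzled receptors and keep beta-catenin from being degraded. Of 39 tested ligands, receptors and feedback genes 16 rose and 1 fell (24 and 5 with the block), with a median of 1.53. Wnt4, a ligand, rose from 0.0384, 0.0984 and 0 CPM to 4.94, 8.21 and 8.6 CPM (log2 fold change 6.96 ± 0.70, adjusted p = 0.00102). Notum, an enzyme that inactivates Wnt ligands, rose from 0.0384, 0.131 and 0.0633 CPM to 3.74, 6.65 and 7.71 CPM (log2 fold change 6.13 ± 0.64, adjusted p = 0.00118). Axin2, a feedback inhibitor that Wnt signalling induces, rose from 8.1, 8.3 and 7.09 CPM to 26.8, 33.8 and 22.2 CPM (log2 fold change 1.82 ± 0.26, adjusted p = 0.00318). The groups did not overlap for the 3 genes. Wnt1 had 0 counts in every control library and 9, 1 and 13 counts with PB-4 and did not pass, with an adjusted p of 0.083 and 0.0223 with the block. Ctnnb1, beta-catenin itself, fell from 1112, 1088 and 1300 CPM to 731, 708 and 606 CPM (log2 fold change -0.77 ± 0.21, adjusted p = 0.0383), and this call was lost when any of the 6 libraries was left out.

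In the Notch pathway, which passes signals between touching cells, 8 of 18 tested genes rose and none fell (12 and 1 with the block, median 1.87, or 1.47 with 1 gene at its bound). Notch3, a receptor, rose from 2.65, 2.59 and 4.37 CPM to 101, 119 and 284 CPM (log2 fold change 5.73 ± 0.50, adjusted p = 7.0e-04). Dll1, a ligand, rose from 0.0384, 0.131 and 0 CPM to 1.12, 1.28 and 1.86 CPM (log2 fold change 4.34 ± 0.83, adjusted p = 0.0106). Hey1, a target that represses transcription, rose from 0, 0.0656 and 0.19 CPM to 4.26, 6.4 and 6.06 CPM (log2 fold change 6.16 ± 0.81, adjusted p = 0.00242). Lfng, a glycosyltransferase that tunes which ligand a receptor hears, rose from 0.154, 0.558 and 0.38 CPM to 5.14, 7.42 and 11 CPM (log2 fold change 4.40 ± 0.59, adjusted p = 0.00258). Each of these genes had all PB-4 libraries above the control range, but 10 of the 18 tested genes were not called. Among the latter were Notch2 (log2 fold change 0.08, adjusted p = 0.842) and Rbpj (log2 fold change -0.54, adjusted p = 0.284), which was called with the block. No left-out library moved the count of rises by more than 1.5 times. Over genes with at least 10 control counts 6 of 13 Notch genes and 10 of 27 Wnt genes rose, with medians of 1.19 and 0.84.

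Of 18 tested genes of the TGF-beta and BMP pathway 10 rose and 1 fell (10 and 3 with the block, median 1.07), and the rises were 6 without PB-4 replicate 1 and 4 without PB-4 replicate 2, control replicate 1 or control replicate 2. Nog, noggin, which traps BMP ligands, rose from 0.307, 0.164 and 0.443 CPM to 3.23, 4.17 and 4.68 CPM (log2 fold change 3.75 ± 0.54, adjusted p = 0.00322). Id2, a helix-loop-helix inhibitor that BMP induces and that slows differentiation, fell from 88, 99.4 and 112 CPM to 31.4, 27 and 15.6 CPM (log2 fold change -2.01 ± 0.29, adjusted p = 0.00325). The groups were apart for both. Of 14 MAP kinase feedback genes none rose and 3 fell (3 and 5 with the block), and the falls were 1 without PB-4 replicate 2, control replicate 1 or control replicate 2. Dusp4, a phosphatase that turns off these kinases, fell from 71.6, 74.4 and 106 CPM to 18.1, 20.4 and 16.9 CPM (log2 fold change -2.19 ± 0.24, adjusted p = 0.00135), with no overlap. Of 15 tested AP-1 and immediate early genes 4 rose and none fell (6 and none with the block, median 1.14), and the rises were 2 without control replicate 3 and 0 without control replicate 1 or control replicate 2. Of 15 tested Kruppel-like factors 1 rose and 1 fell, with 4 and 2 under the block and a median log2 fold change of 0.42. Klf9, which holds back proliferation, rose from 8.41, 9.12 and 6.08 CPM to 31.2, 25.4 and 18.2 CPM (log2 fold change 1.66 ± 0.30, adjusted p = 0.00848), and Klf15 fell from 28.6, 27.8 and 63.2 CPM to 4.54, 5.86 and 13.3 CPM (log2 fold change -2.35 ± 0.49, adjusted p = 0.0155), a call lost without PB-4 replicate 2.

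Germline, imprinted and Hox genes are often silenced by DNA methylation or polycomb. Of 25 germline genes 8 were tested, and 2 rose and 0 fell, with 5 and 0 under the block and a median log2 fold change of 1.50. None of the 4 with at least 10 control counts rose. Of 24 imprinted genes 11 were tested, and 4 rose and 0 fell, with 5 and 2 under the block and a median log2 fold change of -0.15. The rises were 2 without control replicate 2. Igf2, a growth factor expressed from the paternal copy, rose from 0, 0 and 0.0633 CPM to 1.51, 0.87 and 7.57 CPM (182 counts in all against 1, a ratio of 167 with a 95% counting interval of 29.6 to 6640, adjusted p = 0.00934), and Phlda2, a brake on placental growth, rose from 0.384, 0.262 and 0.317 CPM to 4.46, 4.17 and 6.47 CPM (log2 fold change 3.95 ± 0.48, adjusted p = 0.00186). The PB-4 libraries were the highest for both. Of 39 Hox genes 22 were tested, and 5 rose and 1 fell, with 8 and 4 under the block and a median log2 fold change of 0.33. The rises were 3 without PB-4 replicate 3 or control replicate 1 and 2 without PB-4 replicate 2 or control replicate 2 and the fall, Hoxa11, was lost without control replicate 2 and without PB-4 replicate 1 or 2. Over genes with at least 10 control counts 2 of 17 Hox genes rose. Hoxc6 rose from 0.691, 0.689 and 0.19 CPM to 6.49, 7.55 and 3.51 CPM (log2 fold change 3.43 ± 0.58, adjusted p = 0.00654).

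Of 27 interferon response genes 10 rose and none fell (19 and 1 with the block), with a median of 1.17. The rises were 5 without PB-4 replicate 1, 4 without PB-4 replicate 2, 3 without control replicate 2 and 2 without control replicate 1. Oas1a, a sensor of double-stranded RNA, rose from 1.08, 0.492 and 0.443 CPM to 8.48, 7.88 and 19.7 CPM (log2 fold change 4.13 ± 0.57, adjusted p = 0.00295). Usp18, which removes ISG15 from proteins and damps the response, rose from 1.57, 2.39 and 0.633 CPM to 14.5, 14.7 and 13.9 CPM (log2 fold change 3.20 ± 0.47, adjusted p = 0.00362). The groups were apart for both. Of 9 tested genes of MHC class I presentation 3 rose and 1 fell, with 4 and 2 under the block and a median log2 fold change of 0.98. The rises were 1 without PB-4 replicate 1 or PB-4 replicate 2, and the fall, Psmb10, was lost without control replicate 1, 2 or 3 and without PB-4 replicate 1 or 2, and with RLE factors or library totals. H2-K1, a class I heavy chain, rose from 0.768, 0.656 and 0.317 CPM to 5.74, 4.91 and 9.64 CPM (log2 fold change 3.50 ± 0.51, adjusted p = 0.00357). H2 genes are near copies of each other, and the treatment of reads shared between them was not stated in the sources used here. Of 17 tested cytokines and checkpoint ligands 3 rose and 0 fell, with 5 and 2 under the block and a median log2 fold change of 0.77, or 0.34 over the 12 with at least 10 control counts. The rises were 1 without PB-4 replicate 2 or control replicate 1. Cd276, the checkpoint ligand B7-H3, rose from 10.5, 10.6 and 16.7 CPM to 58.8, 57.8 and 84.7 CPM (log2 fold change 2.42 ± 0.29, adjusted p = 0.00183).

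The largest changes of genes with a mean of at least 5 CPM were rises of genes close to silent in control cells. The genes named next lie below that mean and were taken for their PB-4 level among genes with 0 control counts. St8sia5, a sialyltransferase of gangliosides, went from 0 control counts to 149, 296 and 154 with PB-4, at least 183-fold higher against a floor of 3 counts over the control group. Htr3a, a serotonin-gated channel subunit, had 0 and then 92, 110 and 255 counts, at least 140-fold higher. The sodium-activated potassium channel Kcnt1 (at least 111-fold), the cytochrome P450 gene Cyp4f18 (at least 115-fold) and the lncRNA Gm32585 (at least 100-fold) behaved in the same way. In all, 897 tested genes had no count in the control group and 328 of them rose (507 with the block), while 33 had none with PB-4 and 3 of them fell (11 with the block). Pmp2, a myelin lipid carrier, was one of the 3, with 4, 7 and 8 counts in the control libraries and 0 with PB-4, at least 6.89-fold lower, and its call (adjusted p = 0.0482) was lost in 9 of 14 alternatives, library totals and the omission of any 1 library among them.

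Among other large changes, Myrf, a factor that turns on myelin genes (chr19:10208271-10240777), rose from 0.154, 0 and 0 CPM to 9.52, 10.6 and 29.7 CPM (log2 fold change 8.11 ± 0.97, adjusted p = 0.00189). Sgca, a sarcoglycan of muscle (chr11:94962777-94976327), rose from 0, 0.0984 and 0.0633 CPM to 14, 11.3 and 33.6 CPM (log2 fold change 8.35 ± 0.80, adjusted p = 8.8e-04). Ltbp2, a matrix protein that binds elastic fibres (chr12:84783212-84876558), rose from 0.154, 0 and 0 CPM to 10.9, 10.3 and 27.9 CPM (log2 fold change 8.09 ± 0.94, adjusted p = 0.00164). The lncRNA Gm13398 (chr2:27036679-27040858) rose from 0, 0.0328 and 0.0633 CPM to 4.98, 4.09 and 21.8 CPM (602 counts in all against 2, a ratio of 277 with a 95% counting interval of 76.2 to 2289, adjusted p = 0.00242). Each had all 3 PB-4 libraries above the control range, which the rule that named them required. At the other end, Kif20b, a kinesin of late mitosis (chr19:34922335-34975750), fell from 172, 178 and 79.5 CPM to 42.4, 40.1 and 21.2 CPM (log2 fold change -2.05 ± 0.38, adjusted p = 0.00961), and Esco2, which locks sister chromatids together in S phase (chr14:65819027-65833969), fell from 52.9, 51 and 28.3 CPM to 12.3, 10.7 and 9.09 CPM (log2 fold change -2.04 ± 0.30, adjusted p = 0.00357). Cfap54, a gene of cilia and flagella (chr10:92775609-93083487), fell from 193, 168 and 147 CPM to 51.9, 39.5 and 26 CPM (log2 fold change -2.11 ± 0.29, adjusted p = 0.00271). Positions are those of RefSeq in GRCm38.p6. No strand setting of the counting was found in the sources, so reads of overlapping or antisense genes cannot be told apart.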

How the data were processed

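Total RNA was sequenced from 3 control and 3 PB-4-treated B16 libraries. The authors deposited raw counts per gene in whole numbers, without normalization. By the submitters' processing notes reads were aligned with HISAT2 2.0.4 to GRCm38, while the counter, the annotation and the strand setting were not given in the sources used here. Among 46095 names 27 were dates (0.233 to 0.26% of the counts) and were dropped. Names were matched to RefSeq genes of GRCm38.p6 (41483 by symbol, 1086 by synonym, 2152 by gene number), which left 1347 unmatched. No other column of the table was used.

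Genes with at least 10 counts over the 6 libraries were tested with edgeR 4.0.16 under R 4.3.3 (robust quasi-likelihood fit after TMM scaling) at an adjusted p of 0.05 (Benjamini-Hochberg). The study's methods name no test for the sequencing. The standard error is the size of the log2 fold change over the root of its F statistic. Genes with 0 counts in a group were given a lower bound against 3 counts over that group, and those with 1 to 3 counts a ratio with an exact 95% interval, both for counting error only. At this depth 3 libraries per group limit the precision more than the counts do for well-expressed genes. Libraries of equal number deviated together from their group means (correlations 0.618, 0.512 and 0.761, above the limit of 0.1), so the replicate block was fitted as an alternative. The main calls came from the fit without it. Replicates 1 and 2 also correlated across numbers (0.584 and 0.456), and replicate 3 with the others at -0.701 to -0.561. Whether numbers 1 and 2 mark pairs was therefore not shown. Libraries of a group differed by more than sampling noise (chi-square 14.9 to 185 per degree of freedom).

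Alternatives were the replicate block, replicates 1 and 2 only, RLE size factors, library totals, DESeq2 1.42.0, limma voom with quality weights (limma 3.58.1), no filter, filterByExpr, a fit with the ATRA libraries, a 2-fold minimum and leaving out each library. A minimum of 10 counts in the control libraries was chosen after seeing the data. The members of the comparison and its 60 gene lists (52 of processes and 8 of cell type markers) were chosen with earlier results of these data known. Named genes were the 12 largest changes per direction (called with and without the block, mean of at least 5 CPM, no overlap), up to 6 called members with the smallest p and 3 of the highest level in each list, the genes whose products the study measured, and the 6 highest genes with 0 counts in 1 group. Others were chosen after their values were seen. Some genes that the rule names are not reported here. Promoter windows are those of RefSeq. The fit was run on simulated counts drawn for each library on its own, without a deviation shared by libraries of equal number. That run therefore cannot decide between the fits with and without the block. Tables and figures used pandas 2.3.3, numpy 2.4.6, matplotlib 3.10.9 and scipy 1.17.1 under Python 3.11.15.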

Additional observations from a re-analysis of the deposited data

How the results depend on the processing

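The counts of genes called moved with several choices. The comparison as reported called 2246 rises and 893 falls. With the replicate block 4494 rose and 4136 fell. With voom quality weights the counts were 5014 and 4069. Replicates 1 and 2 alone gave 4306 rises and 3155 falls. DESeq2 called 1392 falls and 3013 rises. Library totals called 489 falls and 2673 rises. The 2-fold minimum left 581 falls. The minimum of 10 control counts, chosen after seeing the data, left 1490 rises. Leaving out 1 library gave 1134 to 2289 rises and 182 to 1151 falls, lowest without control replicate 2 for rises and without PB-4 replicate 2 for falls, and highest for both without control replicate 3. RLE factors, no filter, filterByExpr and the fit with the ATRA libraries moved neither count by more than 1.5 times. Of 401 genes named by the rule none that was called, as reported or under one of these alternatives, changed sign there. Among them 119 of the 272 called ones lost the call under at least 1, and 97 of the others gained one. The block lost 8 rises and 1 fall of those reported, and its values stand beside the results it changed. None of the 1179 genes with a mean below 0.1 CPM was called at this depth without the block.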
